A study of Mus musculus with 36 samples.

Results

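The genes followed here, 10 markers of macrophages and other leukocytes measured by RNA-seq in a pair of mouse muscles, were Ptprc, Adgre1, Csf1r, Cd68, Lyz2, C1qa, C1qb, C1qc, Mrc1 and Cd163. They were chosen by symbol, each matched 1 Ensembl ID, and 10 of 10 were found among the 51912 genes counted and passed the filter on low counts in every comparison. The groups were the tibialis anterior (TA), a fast hindlimb muscle, and the soleus, a slow one, from WT and ∆Ig3-MuSK mice of the C57BL/6 strain at 3 months of age, with 9 libraries per group and 36 in all. ∆Ig3-MuSK mice (delta_Ig3-MuSK in the labels) are homozygous for a germline CRISPR-Cas9 deletion, not limited to any cell type, that removes exons 6 and 7 of Musk, the exons of the BMP-binding immunoglobulin-like domain Ig3 of this receptor of the neuromuscular synapse, and no treatment was given. Each library holds the RNA of a whole muscle, so that macrophages are a small share of the cells measured, and fewer cells of a type and less RNA per cell cannot be told apart.

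Resting skeletal muscle holds resident macrophages in the connective tissue between and around its fibers. They depend on signals through the CSF1 receptor, clear debris and haemoglobin, present antigen, and multiply or are joined by blood monocytes after injury. Ptprc (CD45) is carried by nearly all leukocytes. Adgre1 (F4/80) and Csf1r mark the macrophage lineage, Cd68 and Lyz2 belong to its lysosomes and secreted defence, C1qa, C1qb and C1qc encode the 3 chains of the complement starter C1q, and the scavenger receptors Mrc1 (CD206) and Cd163 mark resident, anti-inflammatory states.

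Total counts ran from 43492062 to 78660422 per library and were higher in the TA (group medians 66259327 and 65772531) than in the soleus (45371395 and 51110940), so muscle and depth cannot be told apart. Musk, the targeted gene, was measured at 2.87 to 5.58 CPM (median 3.81; CPM are counts per 1000000 counted reads) in WT TA, 2.62 to 4.01 (3.08) in ∆Ig3-MuSK TA, 12.5 to 18.4 (14.7) in WT soleus and 8.07 to 17.5 (10.5) in ∆Ig3-MuSK soleus. Reads of all Musk exons are pooled in these counts, which therefore say nothing of exons 6 and 7 and do not check the labels. CPM values here use a single TMM scaling over the 36 libraries.

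A pair of soleus libraries stood apart for these markers. WT soleus replicate 7 was the highest of its group for 10 of the 10 genes, with a summed level of 211 CPM against 86.4 to 126 CPM in the other 8 libraries. ∆Ig3-MuSK soleus replicate 2 was the lowest of its group for 10 of the 10, at 25.7 CPM against 46.9 to 143 CPM. Some soleus results for the markers are given with and without both libraries, a choice made after seeing the data. Other soleus values include both libraries.

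The markers were detected in every library, from 24 counts for Adgre1 in ∆Ig3-MuSK soleus replicate 2 to 4816 counts for Lyz2 in WT soleus replicate 7. Per kilobase of exon, the level in WT TA was highest for Lyz2, a lysozyme that degrades bacterial walls (35.8 ± 13.3 CPM per kb, SD, n = 9). The C1q chains followed, C1qa at 10.5 ± 3.15, C1qb at 8.53 ± 2.47 and C1qc at 5.40 ± 1.45 CPM per kb, and C1qa and C1qb lay within each other's spread. Below them came Csf1r at 2.75 ± 0.302 CPM per kb. Cd163 (1.66 ± 0.323), Mrc1 (1.65 ± 0.243) and Cd68 (1.40 ± 0.397) did not differ beyond their spread on the same per-length scale. Adgre1 had a lower mean (0.989 ± 0.253), with a spread that overlapped that of Cd68, and Ptprc was the lowest at 0.170 ± 0.0226. The exon length of Ptprc, 18313 bases, joins the exons of all its annotated transcripts, so its per-length level is understated.

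T and NK cell and neutrophil genes were close to the limit of detection. Of 13 T and NK cell genes, 12 had a mean level under 1 CPM in each of the 4 groups, and of 13 neutrophil genes 12 did in the TA and 13 in the soleus. Group means of Cd3e (T cells) ran from 0.108 to 0.446 CPM and of Ly6g (neutrophils) from 0.0519 to 0.0606 CPM, and those of Ptprc, which all these cells share with macrophages, from 2.62 to 3.30 CPM. Mast cell genes were higher, with 3 of 8 under 1 CPM and a sum of 12.1 ± 1.90 CPM in WT TA, as were Ly6c2 of monocytes (5.44 ± 0.606 CPM in WT TA) and the immunoglobulin gene Ighm (35.5 ± 10.4 CPM), 2 genes named after their values were seen. Ly6c2 does not stand for all monocyte genes. In WT TA Ccr2 was at 3.35 ± 1.23 CPM, but Plac8, Chil3 and Treml4 were at 0.252, 0.0305 and 0.0517 CPM. These genes too were named after their values were seen. The counts of Lyz2 are uncertain to the extent that reads match its near-identical paralog Lyz1, and 873 bases of Csf1r exon overlap exons of Hmgxb3 on the opposite strand, which these unstranded libraries cannot separate.

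**Figure D1:**
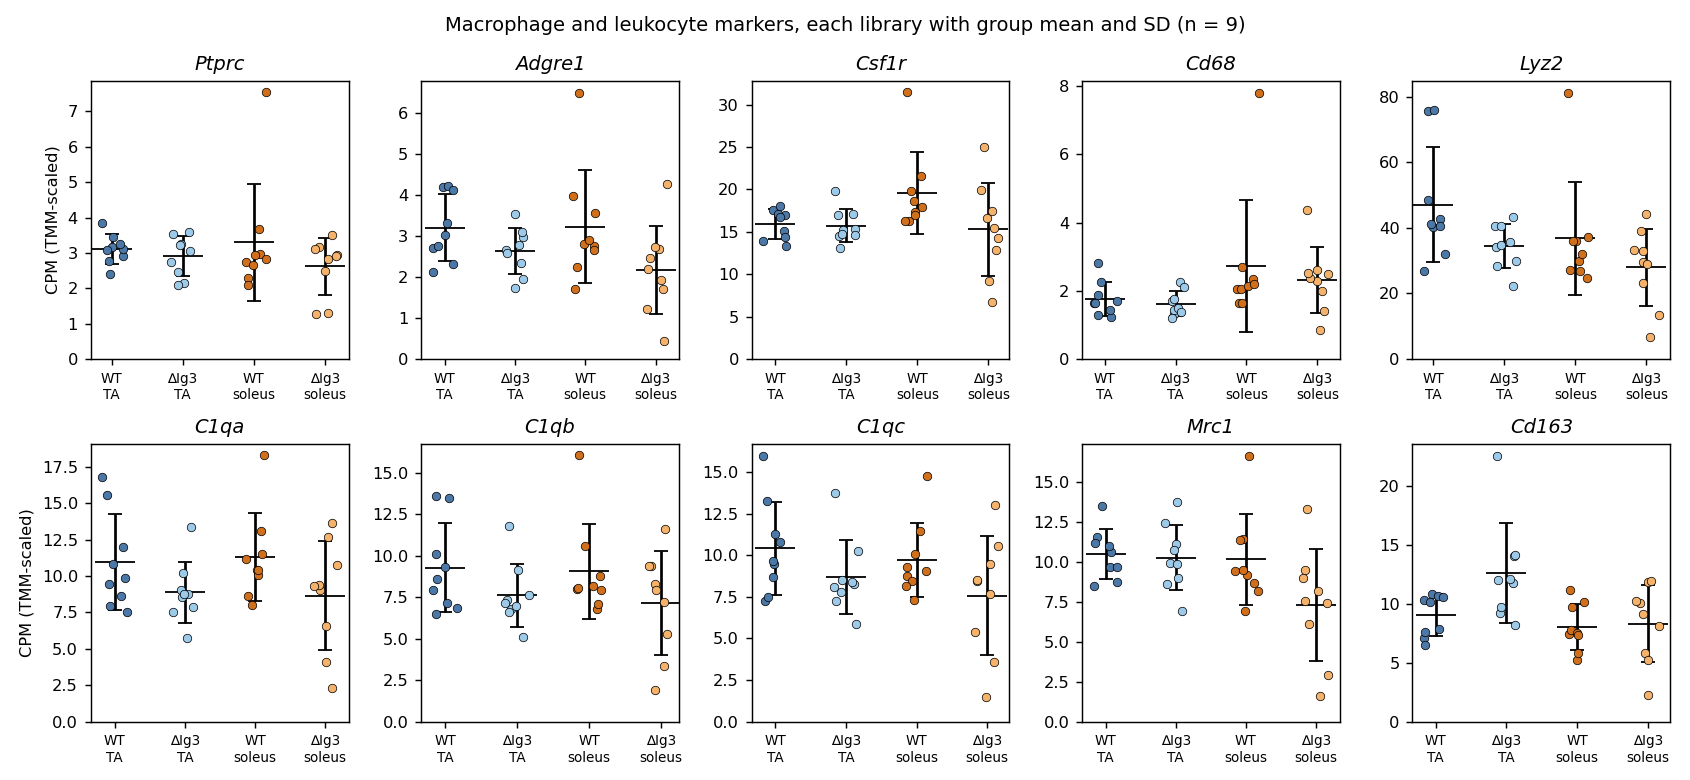
TMM-scaled CPM (vertical axes, from 0) of each marker in every library of the 4 groups, with the group mean and SD (n = 9). WT soleus replicate 7 is the top point of its group in each panel, for example 81.1 CPM for Lyz2, and in the TA the ∆Ig3-MuSK points of Cd163 reach 22.6 CPM against 10.9 CPM in WT.

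Promoter sequence is shown for 3 markers that behaved differently in what follows: C1qb, one of the genes that varied most closely with the others, Cd68, the one that followed them least in the soleus, and Cd163, the only one with a higher estimate in ∆Ig3-MuSK TA. RefSeq windows on GRCm38.p6 were at hand for 7 of the 10 genes. Each line gives the 250 bases before the RefSeq start, 5′ to 3′ on the strand of the gene, at chr4:136886201-136886450 (minus strand), chr11:69666171-69666420 (minus) and chr6:124304401-124304650 (plus), and capitals mark GAGGAA, the core bound by Spi1, the ETS factor that directs myeloid genes.
C1qb: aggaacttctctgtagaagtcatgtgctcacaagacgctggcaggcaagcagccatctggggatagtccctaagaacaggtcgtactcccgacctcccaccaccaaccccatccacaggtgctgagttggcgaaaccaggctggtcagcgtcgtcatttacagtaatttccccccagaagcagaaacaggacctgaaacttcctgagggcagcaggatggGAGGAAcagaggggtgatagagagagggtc
Cd68: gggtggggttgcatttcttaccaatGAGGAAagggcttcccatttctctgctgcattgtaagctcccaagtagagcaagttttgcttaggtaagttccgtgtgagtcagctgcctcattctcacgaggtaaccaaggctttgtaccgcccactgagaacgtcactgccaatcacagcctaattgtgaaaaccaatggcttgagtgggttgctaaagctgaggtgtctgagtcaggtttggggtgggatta
Cd163: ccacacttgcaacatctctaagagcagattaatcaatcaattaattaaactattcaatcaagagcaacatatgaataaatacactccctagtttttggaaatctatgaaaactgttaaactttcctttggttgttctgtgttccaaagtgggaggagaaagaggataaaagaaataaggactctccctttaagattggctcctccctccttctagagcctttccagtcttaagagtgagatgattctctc
Searched on both strands, GAGGAA or its reverse complement TTCCTC stood in a window of 5 of the 7 genes (Ptprc, Mrc1, C1qb, C1qc and Cd68) and in none of the windows of Lyz2 and Cd163, while 23.3% of all promoter windows of this length held it. In the C1qb window it began at position -30 and in the Cd68 window at -225, counted from the RefSeq start. A match of letters is a description of the sequence and not a measured binding site.

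The first question was whether loss of the Ig3 domain went with a different macrophage signal in the TA. No marker passed the test there. Cd163, the receptor that takes up haemoglobin bound to haptoglobin, had a higher estimate in ∆Ig3-MuSK, and Lyz2 a lower one. With edgeR's quasi-likelihood test, at an adjusted p under 0.05 and at least 1.2-fold, 0 of 10 markers were called against 0.0149% of the 20075 genes tested. At an unadjusted p under 0.05 it was 2 of 10, Cd163 and Lyz2, a share below the 24.1% of all genes, and DESeq2 and limma-voom also called 0 of 10. The estimates of the other 9 markers were all below 0, and the median of the 10 was -0.19 on the log2 scale, where that of all genes was -0.0032.

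Cd163 ran from 6.54 to 10.9 CPM (median 10.2) in WT TA and from 8.22 to 22.6 CPM (median 12.03) in ∆Ig3-MuSK TA. The groups overlapped, but 6 of 9 ∆Ig3-MuSK libraries lay above the highest WT library and 4 of 9 WT libraries lay below the lowest ∆Ig3-MuSK one. The log2 fold change was 0.48 ± 0.16 (SE), a 1.39-fold higher level, with an adjusted p of 0.155, and over the alternatives tried the adjusted p ran from 0.0739 to 0.284.

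Lyz2 ran from 26.9 to 76.0 CPM (median 41.3) in WT TA and from 22.3 to 43.3 CPM (median 34.8) in ∆Ig3-MuSK TA. The difference lay mostly in the top of the WT group, where 3 of 9 libraries exceeded the highest ∆Ig3-MuSK library and 1 of 9 ∆Ig3-MuSK libraries was under the lowest WT one. Its log2 fold change was -0.45 ± 0.17 with an adjusted p of 0.164 (0.110 to 0.325 over the alternatives).

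The C1q chains, which are made together by resident macrophages, had like estimates of -0.30 ± 0.16 for C1qa, -0.28 ± 0.16 for C1qb and -0.26 ± 0.15 for C1qc in the TA, with adjusted p from 0.234 to 0.282. C1qa ran from 7.52 to 16.8 CPM (median 9.84) in WT and from 5.75 to 13.3 CPM (median 8.75) in ∆Ig3-MuSK, and 2 of 9 WT libraries lay above all ∆Ig3-MuSK ones. Csf1r was closer to 0. It ran from 13.3 to 18.01 CPM in WT and 13.1 to 19.8 CPM in ∆Ig3-MuSK, with a log2 fold change of -0.016 and a 95% interval of -0.18 to 0.14. Intervals also spanned 0 for Mrc1 (-0.26 to 0.20), Ptprc (-0.33 to 0.13), Cd68 (-0.44 to 0.20) and Adgre1 (-0.59 to 0.029). The intervals of Ptprc, Cd68 and Adgre1 hold 0 and also values of the size estimated for the C1q chains, and that of Csf1r does not reach the latter.

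In the soleus, the muscle with the higher Musk level, the same comparison called 0 of 10 markers against 0.952% of the 19439 genes tested. At an unadjusted p under 0.05 it was 0 of 10 against 18.5% of all genes, and DESeq2 and limma-voom called 0 of 10. Leaving out 1 library moved the number of all genes called from 22 genes without WT soleus replicate 5 to 602 without WT soleus replicate 1, and no marker was called in any of the fits without 1 library. The estimates were below 0 for 9 markers, with a median of -0.37 where that of all genes was -0.0017, and the exception was again Cd163 at 0.040 ± 0.23. Standard errors ran from 0.19 to 0.30, wider than the 0.076 to 0.17 of the TA.

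Adgre1, an adhesion receptor of mature macrophages, had the estimate farthest from 0 in the soleus. It ran from 1.72 to 6.48 CPM (median 2.81) in WT soleus and from 0.428 to 4.27 CPM (median 2.20) in ∆Ig3-MuSK soleus, and 8 of 9 ∆Ig3-MuSK libraries lay below the WT median. The log2 fold change was -0.58 ± 0.30 with an adjusted p of 0.301 (0.0805 to 0.649 over the alternatives). Mrc1, the mannose receptor, ran from 6.95 to 16.6 CPM (median 9.45) in WT and from 1.59 to 13.3 CPM (median 7.54) in ∆Ig3-MuSK, with an estimate of -0.49 ± 0.27 and an adjusted p of 0.354. Csf1r ran from 16.3 to 31.5 CPM (median 17.9) in WT and from 6.78 to 25.04 CPM (median 15.5) in ∆Ig3-MuSK. For this receptor 5 of 9 ∆Ig3-MuSK libraries lay below every WT library, and its estimate was -0.37 ± 0.19 with an adjusted p of 0.324.

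Much of the size of these soleus estimates came with the 2 libraries that stood apart. Without them Adgre1 was at -0.24 ± 0.21, Mrc1 at -0.22 ± 0.20, Csf1r at -0.15 ± 0.14 and Lyz2 at -0.033 ± 0.17. The sign turned for Ptprc, from -0.35 ± 0.24 to 0.0055 ± 0.16, and for Cd68, from -0.26 ± 0.30 to 0.25 ± 0.17, and Cd163 moved to 0.25 ± 0.17. None of the 10 was called in that fit either, and the smallest of their adjusted p was 0.524. Summed over the 10 genes, the soleus means were 114 ± 38.6 CPM in WT and 89.4 ± 35.4 CPM in ∆Ig3-MuSK with all libraries, and 102 ± 13.3 and 97.3 ± 28.0 CPM without the pair.

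**Figure D2:**
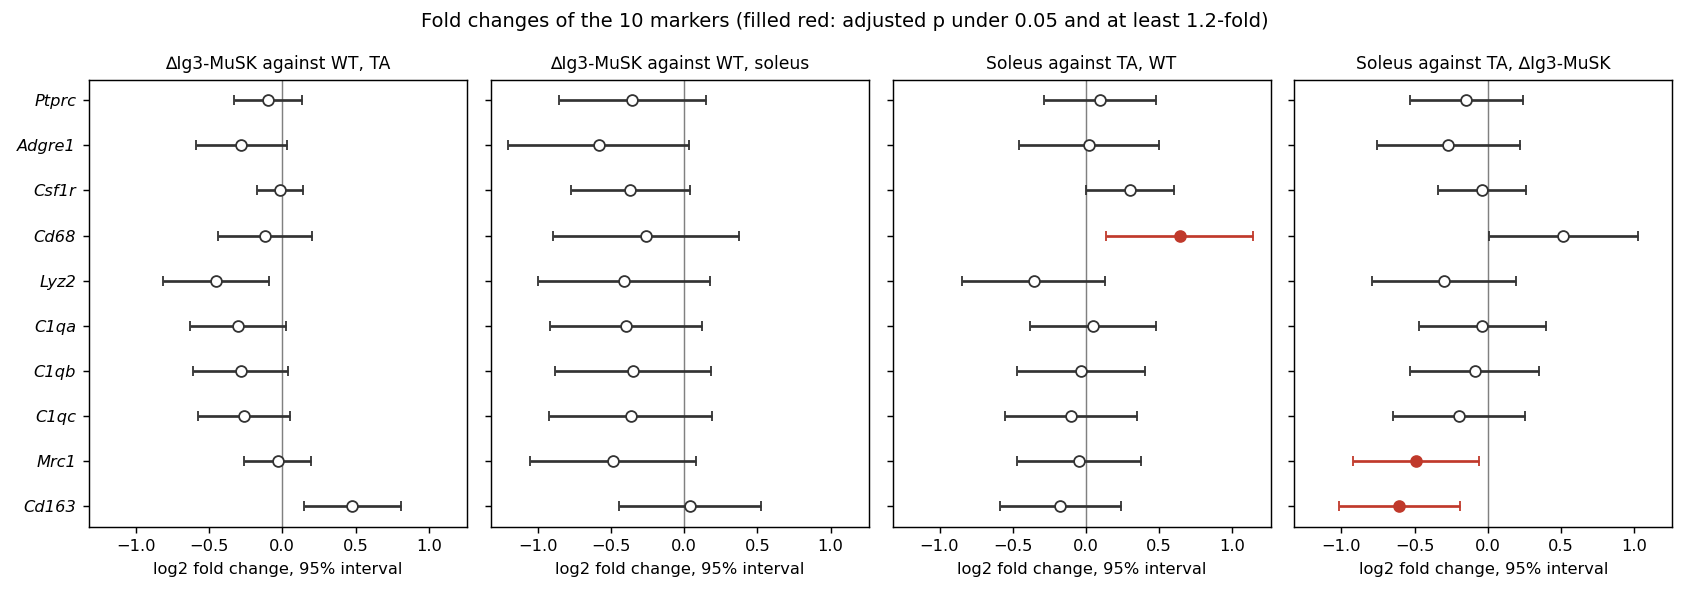
Log2 fold change (horizontal axes) of the 10 markers with its 95% interval, by genotype within each muscle and by muscle within each genotype, filled red where called. In the genotype comparisons 9 of 10 estimates lie below 0 in each muscle and none is called, and Cd163 in the TA lies at 0.48.

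The genotype difference itself was compared between the muscles with an interaction term, where 0 of 10 markers were called against 0% of 20841 genes with the quasi-likelihood test, and 0 of 10 against 24.9% of all genes at an unadjusted p under 0.05. DESeq2 and limma-voom also called 0 of 10. Without WT TA replicate 9 the interaction called 1300 genes and without ∆Ig3-MuSK TA replicate 3 it called 920, none of them a marker. The estimates, soleus minus TA, ran from -0.45 for Mrc1 to 0.056 for Lyz2, with standard errors of 0.21 to 0.35. A difference between the muscles was therefore not detectable at this spread.

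Within single libraries Cd163 was set against the other markers, a description chosen after the values were seen and not tested. The ratio of Cd163 to C1qa CPM was 0.906 ± 0.326 (SD, n = 9) in WT TA and 1.43 ± 0.272 in ∆Ig3-MuSK TA, and 8 of 9 ∆Ig3-MuSK libraries had a ratio above the WT median. In the soleus it was 0.724 ± 0.135 in WT and 0.993 ± 0.150 in ∆Ig3-MuSK, and 9 of 9 ∆Ig3-MuSK libraries lay above the WT median, among them replicate 2 with its low level of both genes. Over the 9 markers used in turn as the denominator, 7 to 9 of 9 ∆Ig3-MuSK libraries lay above the WT median in TA libraries and 6 to 9 of 9 in soleus libraries. The lowest counts were 7 for Cd68, Csf1r and Lyz2 in TA libraries, and in soleus libraries 6 for Ptprc and Cd68 and 7 for Lyz2. Of the listed genes for haem and iron handling, 0 of 8 tested were called by genotype in the TA, where 0.0149% of all genes were, and 0 of 9 in the soleus, where 0.952% were. The summed red cell genes, among them the haemoglobin chains, were at 531.2 ± 97.6 CPM in WT TA and 536 ± 116 CPM in ∆Ig3-MuSK TA.

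**Figure D3:**
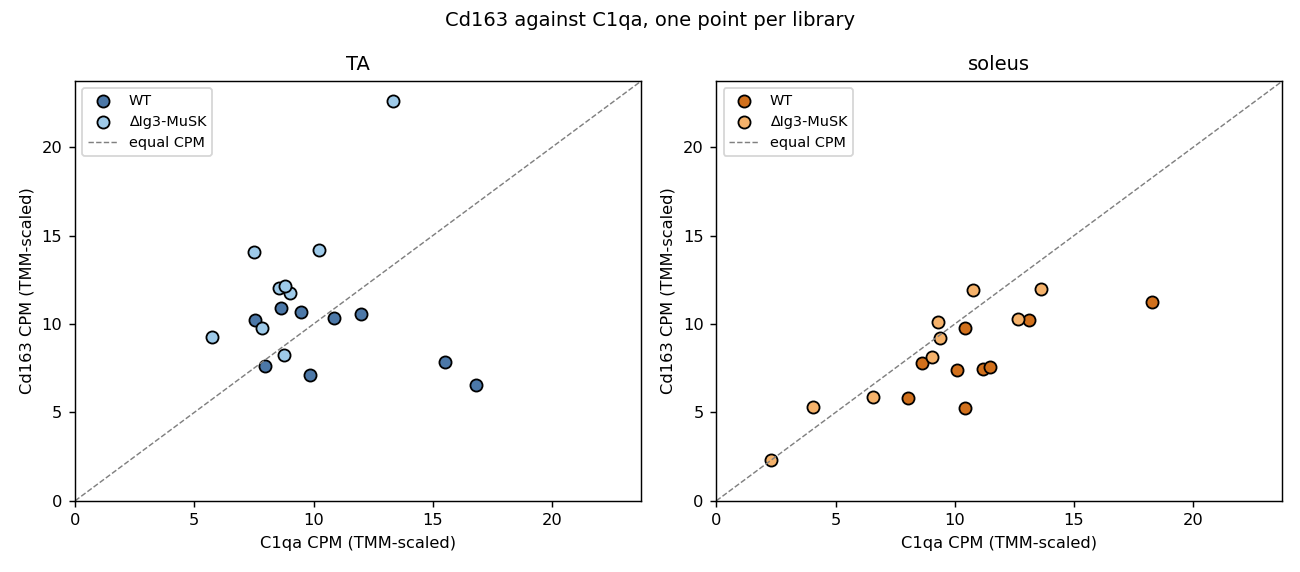
Cd163 CPM (vertical) against C1qa CPM (horizontal) in the TA and the soleus, 1 point per library, with a dashed line of equal CPM. In the TA most ∆Ig3-MuSK points lie above the line (mean ratio 1.43). WT points lie on both sides of it, with ratios from 0.389 to 1.36 and a mean of 0.906. The mean ratios have the same order in the soleus, at 0.993 in ∆Ig3-MuSK and 0.724 in WT.

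Around the markers, no gene of the other leukocyte lists was called by genotype, and not all listed genes could be tested. These lists covered resident macrophages, monocytes and dendritic cells, Fc receptors and their adaptors, MHC class II, complement, lysosomes and chemokines. They also covered T and NK cells, B and plasma cells, neutrophils and mast cells. For either muscle 0 of their tested genes passed, beside 0.0149% of all genes for the TA and 0.952% for the soleus. At these shares, lists this short could hold no called gene without differing from all genes. Of 13 T and NK cell genes, 3 were tested for the TA and 2 for the soleus. Of 13 neutrophil genes, 4 were tested for each muscle. The list medians in the soleus were -0.38 for 14 resident macrophage genes, -0.38 for 10 MHC class II genes and -0.30 for 10 Fc receptor and adaptor genes tested, beside -0.37 for the markers. They were -0.34 for 8 chemokine and cytokine genes, -0.18 for 8 monocyte and dendritic cell genes, -0.16 for 15 complement genes, -0.088 for 12 lysosome genes and 0.058 for 10 regulators of the lineage, of which 6 had estimates above 0. All these list medians include the pair of soleus libraries that stood apart and were not computed without that pair. In the same comparison all 7 adipocyte genes had estimates above 0 (median 0.50) and all 6 tendon genes below 0 (median -0.65), with none called, and the part of such neighbouring tissue in the macrophage values was not tested. The single called gene of the surrounding cell lists was Acta2, the actin of smooth muscle, which fell by 0.38 on the log2 scale in ∆Ig3-MuSK soleus (adjusted p = 0.0496). This call lay close to the limit, and its value without the pair of libraries is not given. Over all genes, that comparison called 185 with the pair and 80 without it.

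The second question was how the markers compare between the fast and the slow muscle. Most genes differed between the muscles, and few of the markers did. In WT, 1 of 10 was called, Cd68, higher in the soleus, against 57.5% of 20841 genes (30.2% higher). In ∆Ig3-MuSK, 2 of 10 were called, Cd163 and Mrc1, both lower in the soleus, against 56.1% of genes (27.6% lower). The medians of the 10 estimates, soleus minus TA, were -0.0060 in WT and -0.17 in ∆Ig3-MuSK. Each of these comparisons shares its libraries with the genotype comparisons, so they are not independent of them.

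Cd68, a glycoprotein of the lysosome membrane, ran from 1.22 to 2.80 CPM (median 1.63) in WT TA and from 1.63 to 7.80 CPM (median 2.14) in WT soleus. The value of 7.80 CPM belongs to replicate 7, and the next library was at 2.71 CPM, so the groups overlapped widely. Cd68 rose by 0.64 ± 0.25 on the log2 scale from TA to soleus (1.56-fold, adjusted p = 0.0228). Without WT soleus replicate 7 alone it was at 0.24 ± 0.20 (adjusted p = 0.280), and without both libraries at 0.25 ± 0.17 (adjusted p = 0.192), so the call rested on replicate 7. In ∆Ig3-MuSK, where replicate 2 was the low library, Cd68 was at 0.51 ± 0.25 with an adjusted p of 0.0695 in all libraries, and it was called without the pair at 0.63 ± 0.17 (adjusted p = 0.0013).

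Cd163 was lower in the soleus of ∆Ig3-MuSK mice. The TA libraries of this genotype lay at 8.22 to 22.6 CPM (median 12.03) and its soleus libraries at 2.28 to 11.98 CPM (median 9.20), a fall of 0.60 ± 0.20 on the log2 scale (1.52-fold lower, adjusted p = 0.00919). The call held in 36 of 36 fits that left out 1 library, with adjusted p up to 0.0392. In WT the same estimate was -0.17 ± 0.20 (adjusted p = 0.459), and the difference between the genotypes, -0.43 ± 0.29, did not pass the interaction test (adjusted p = 0.349).

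Mrc1 was lower in the soleus of ∆Ig3-MuSK mice as well, at 6.94 to 13.7 CPM (median 9.90) in the TA and 1.59 to 13.3 CPM (median 7.54) in the soleus. It fell by 0.49 ± 0.21 on the log2 scale (adjusted p = 0.0396). The call was lost in 6 of the 36 fits that left out 1 library, those without ∆Ig3-MuSK TA replicates 2, 5 or 7 or soleus replicates 2, 6 or 8 (adjusted p up to 0.0876), and without the pair it was at -0.35 ± 0.16 (adjusted p = 0.0514).

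The remaining markers did not pass the test between the muscles in either genotype. In WT the intervals of the estimates were -0.38 to 0.48 for C1qa, -0.47 to 0.41 for C1qb, -0.55 to 0.35 for C1qc, -0.28 to 0.48 for Ptprc and -0.46 to 0.50 for Adgre1. Csf1r was at 0.30 ± 0.15 in WT (adjusted p = 0.0711) and at -0.039 ± 0.15 in ∆Ig3-MuSK. It was called higher in WT soleus without ∆Ig3-MuSK soleus replicate 2 (adjusted p = 0.0335) or replicate 7 (0.0480), since all groups share the estimate of spread. Lyz2 was at -0.36 ± 0.24 in WT (adjusted p = 0.192), and without WT soleus replicate 7 it was called lower in the soleus at -0.60 ± 0.23 (adjusted p = 0.0198).

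Other genes of macrophages were called between the muscles in both directions, at a share near that of all genes. Of 14 resident macrophage genes, 3 were higher and 5 lower in WT soleus, 8 in all (57.1%) where 57.5% of all genes were called. In ∆Ig3-MuSK soleus 2 were higher and 7 lower, 9 in all (64.3%) where 56.1% of all genes were called. Cbr2, a carbonyl reductase, was at 16.6 ± 3.58 CPM in WT TA and 4.92 ± 0.995 CPM in WT soleus (log2 fold change -1.75 ± 0.16, adjusted p = 5.2e-12), with no overlap between the groups. The lectin Cd209g was lower in the soleus as well (1.39 ± 0.494 and 0.465 ± 0.176 CPM, -1.56 ± 0.33). Vsig4, a receptor for complement fragments, was higher (2.39 ± 0.48), but its group means were only 0.0424 CPM in the TA and 0.235 CPM in the soleus.

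Fc receptor and adaptor genes were called in both directions as well, at 40.0% of 10 genes in WT and 20.0% in ∆Ig3-MuSK. Of all genes, 57.5% and 56.1% were called. Tyrobp, which carries the signal of activating receptors, was lower in the soleus by -0.77 ± 0.21 in WT and -0.84 ± 0.22 in ∆Ig3-MuSK, while Laptm5 was higher in WT (0.54 ± 0.20) and Sirpa in both (0.50 ± 0.10 and 0.28 ± 0.10). For MHC class II, 1 of 10 genes was lower in WT soleus (H2-Aa, -0.63 ± 0.24), and in ∆Ig3-MuSK 5 were lower and 1 higher. Of 11 chemokine and cytokine genes tested, 3 were higher and 3 lower in WT soleus (median estimate -0.0055), and 4 higher and 1 lower in ∆Ig3-MuSK soleus. The chemokine Cx3cl1 was higher in the soleus by 1.80 ± 0.14 in WT and 1.37 ± 0.14 in ∆Ig3-MuSK, and Cx3cr1, its receptor on macrophages, by 1.54 ± 0.29 and 1.62 ± 0.31.

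Of 10 regulators of the lineage, 3 were higher and 3 lower in WT soleus, and 1 was higher and 3 lower in ∆Ig3-MuSK soleus, again beside 57.5% and 56.1% of all genes called. Cebpa was the one higher in ∆Ig3-MuSK (1.24 ± 0.23), and Maf and Irf8 were lower in both genotypes. Maf, a transcription factor of resident macrophages that muscle fibers express as well, was at 253 ± 29.7 CPM in WT TA and 26.6 ± 10.4 CPM in WT soleus. Irf8, which directs monocyte development, was at 5.54 ± 0.480 and 2.96 ± 0.506 CPM (-0.90 ± 0.098). The immunoglobulin gene Ighm was at 35.5 ± 10.4 CPM in WT TA and 3.66 ± 1.02 CPM in WT soleus (-3.28 ± 0.20). It was the 1 gene called lower in WT soleus of 10 B and plasma cell genes tested. The 2 others called, Jchain (1.42 ± 0.35) and Mzb1 (1.02 ± 0.18), were higher there.

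Neighbouring tissue differed between the muscles at the same time. All 7 adipocyte genes (median estimate 1.39) and all 6 tendon genes (1.70) were called higher in WT soleus, as were 6 of 8 endothelial genes, where 30.2% of all genes were called higher, and the summed fibroblast genes were at 1657 ± 342 CPM against 1455 ± 178 CPM in the TA. The part of these tissues in the marker levels was not tested.

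The third question was how the markers vary among animals of 1 group. The median coefficient of variation of the 10 was 26.3% in WT TA, 21.7% in ∆Ig3-MuSK TA, 29.6% in WT soleus and 42.8% in ∆Ig3-MuSK soleus. Those of all genes at 1 CPM or more were lower, at 13.8%, 10.1%, 9.48% and 10.3%, but these genes were not matched to the markers for level. The soleus values include the pair of libraries that stood apart and were not computed without that pair. Cd68 had 48 to 463 counts and Csf1r 380 to 1873 counts per library.

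They also varied together. Deviations of log2 CPM from the group mean were correlated between each marker and Csf1r over the 18 libraries of a muscle, with permutation p-values from 100000 shuffles within genotype and adjustment over 18 relations. In the soleus r was 0.98 for C1qb (Spearman's rho 0.97), 0.97 for C1qa (rho 0.98) and 0.96 for Mrc1 (rho 0.93), each with a permutation p of 1e-05, the smallest these shuffles can give (adjusted 2.25e-05). Without the 2 libraries farthest from the median of Csf1r, ∆Ig3-MuSK soleus replicates 2 and 7, these were 0.97, 0.96 and 0.93. In the TA the closest was Mrc1 (r = 0.88, rho 0.88, permutation p = 4e-05, adjusted 8e-05), with 0.81 without the 2 farthest libraries, and the weakest was Ptprc (r = 0.51, rho 0.54, permutation p = 0.0397, adjusted 0.0397).

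Across all 45 pairs of markers the median r was 0.65 for the TA, 0.91 for the soleus and 0.82 for the soleus without the pair of libraries. The pairs share libraries, scaling and depth, and the values describe these libraries. The C1q chains were the tightest group, with r of 0.96 to 0.97 in TA libraries and 0.98 to 0.99 in soleus libraries. Within a library their proportions changed little, with C1qb at 0.852 ± 0.0739 of the C1qa CPM in WT TA and 0.828 ± 0.0433 in ∆Ig3-MuSK soleus.

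Cd163 and Cd68 followed the others less. Cd163 in the TA had r of -0.024 with Lyz2, 0.18 with C1qa and 0.55 with Csf1r (rho 0.49, permutation p = 0.0243, adjusted 0.0257), and the last was 0.24 without the 2 farthest libraries, ∆Ig3-MuSK TA replicates 1 and 5, so it rested on them. Cd68 in the soleus had r of 0.64 with Csf1r (rho 0.61, permutation p = 0.00708, adjusted 0.00796). Without WT soleus replicate 7 and ∆Ig3-MuSK soleus replicate 2 that r was 0.071, and with all other markers Cd68 lay between -0.099 and 0.24, while the other markers kept r with Csf1r from 0.79 to 0.97. The ∆Ig3-MuSK soleus library with the highest Cd68 (replicate 6, 4.38 CPM) was not the one with the highest Csf1r (replicate 7, 25.04 CPM).

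**Figure D4:**
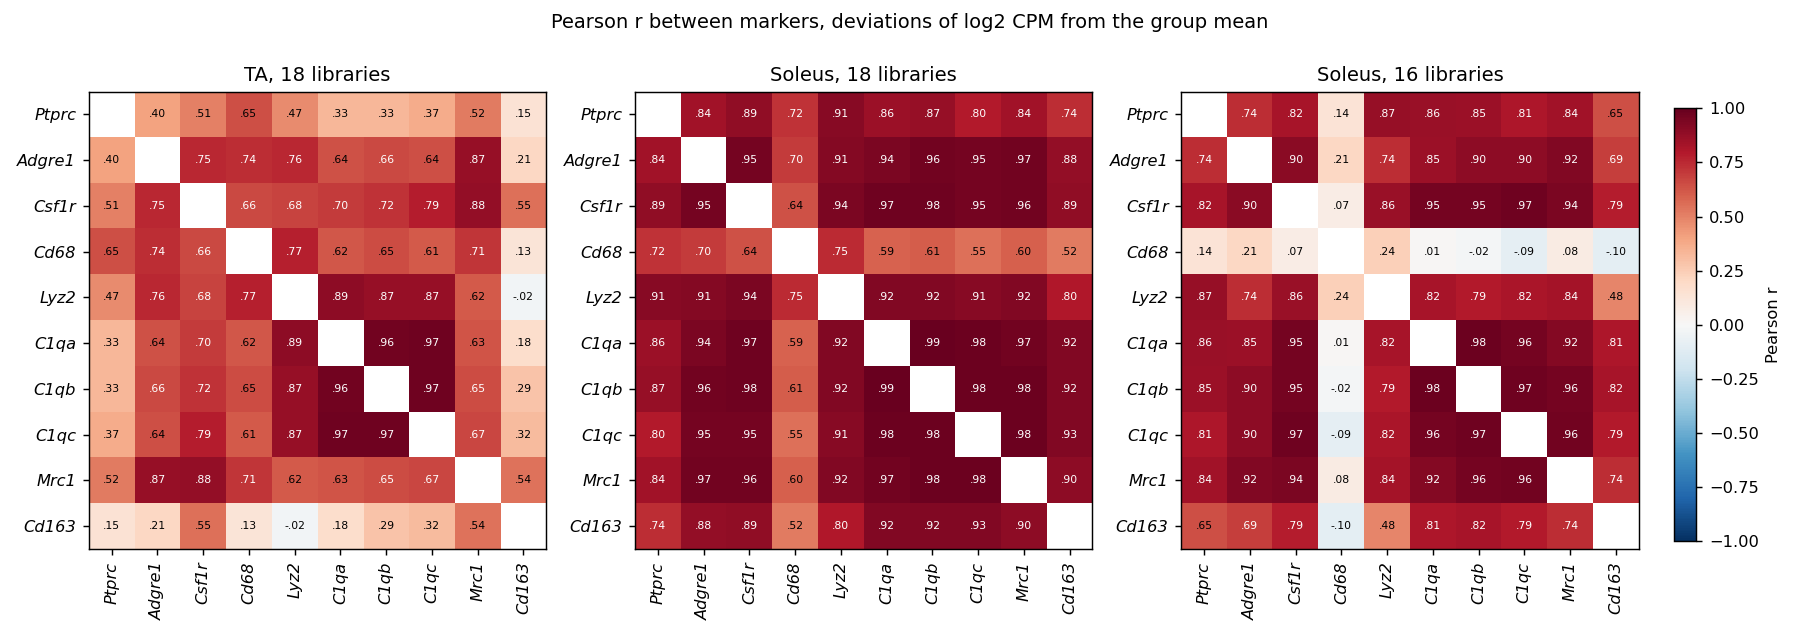
Pearson r (color and number in each cell) between markers across libraries, after removing group means, in the TA, in the soleus, and in the soleus without WT replicate 7 and ∆Ig3-MuSK replicate 2. The median r is 0.65, 0.91 and 0.82, and the row of Cd68 is near 0 in the last panel.

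Outside the 10, the genes whose deviations from the group mean of log2 CPM followed the averaged deviations of the markers most closely over the 36 libraries, among 15489 genes at 1 CPM or more, were Cybb (r = 0.95), Ccl9 (0.95), Laptm5 (0.94), Pirb (0.94) and Fcgr3 (0.94). Cybb is the catalytic subunit of the phagocyte oxidase, Ccl9 a chemokine, Pirb and Fcgr3 receptors of myeloid cells.

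Levels in the TA and the soleus that carried the same label number, 16 pairs, were compared for each marker as deviations from the group means. Pearson's r ran from -0.15 (Cd68) to 0.58 (Cd163), and 0 of 10 relations passed after adjustment (smallest adjusted permutation p = 0.518 for r and 0.461 for Spearman's rho). For Cd163 r was 0.45 without the 2 farthest pairs. Whether a shared number marks the same animal is not stated in the labels.

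The 2 libraries that stood apart differed from their groups in some lists and not in others. In WT soleus replicate 7 the markers were 2.11 times the median of the other 8 libraries, from 1.497 times for Cd163 to 3.72 times for Cd68. MHC class II genes were at 3.71 times (256 CPM against 49.1 to 97.4), Fc receptor and adaptor genes at 2.04 times and monocyte and dendritic cell genes at 1.58 times. Fibroblast genes were raised as well, at 2442 CPM against 1308 to 1875 CPM. The T and NK cell sum (4.06 CPM against 3.52 to 4.57), the neutrophil sum (2.19 against 1.60 to 3.72) and the endothelial sum (403 against 364 to 474) lay within the range of the other libraries.

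∆Ig3-MuSK soleus replicate 2 had the markers 3.75 times below the median of the others, from 2.28 times for Ptprc to 5.80 times for C1qc. MHC class II genes were 2.57 times and resident macrophage genes 2.23 times below it, each lower than in the other 8 libraries. Its fibroblast sum (1012 CPM against 800 to 1915) and tendon sum (331 against 24.1 to 484) lay within their range, and its endothelial sum (319 against 339 to 440) just below it. Replicate 8 of the same group, the next lowest for the markers at 46.9 CPM, had the lowest tendon (24.1 CPM) and adipocyte (23.9 CPM) sums. The part of the cells taken with each muscle in these differences was not tested.

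**Figure D5:**
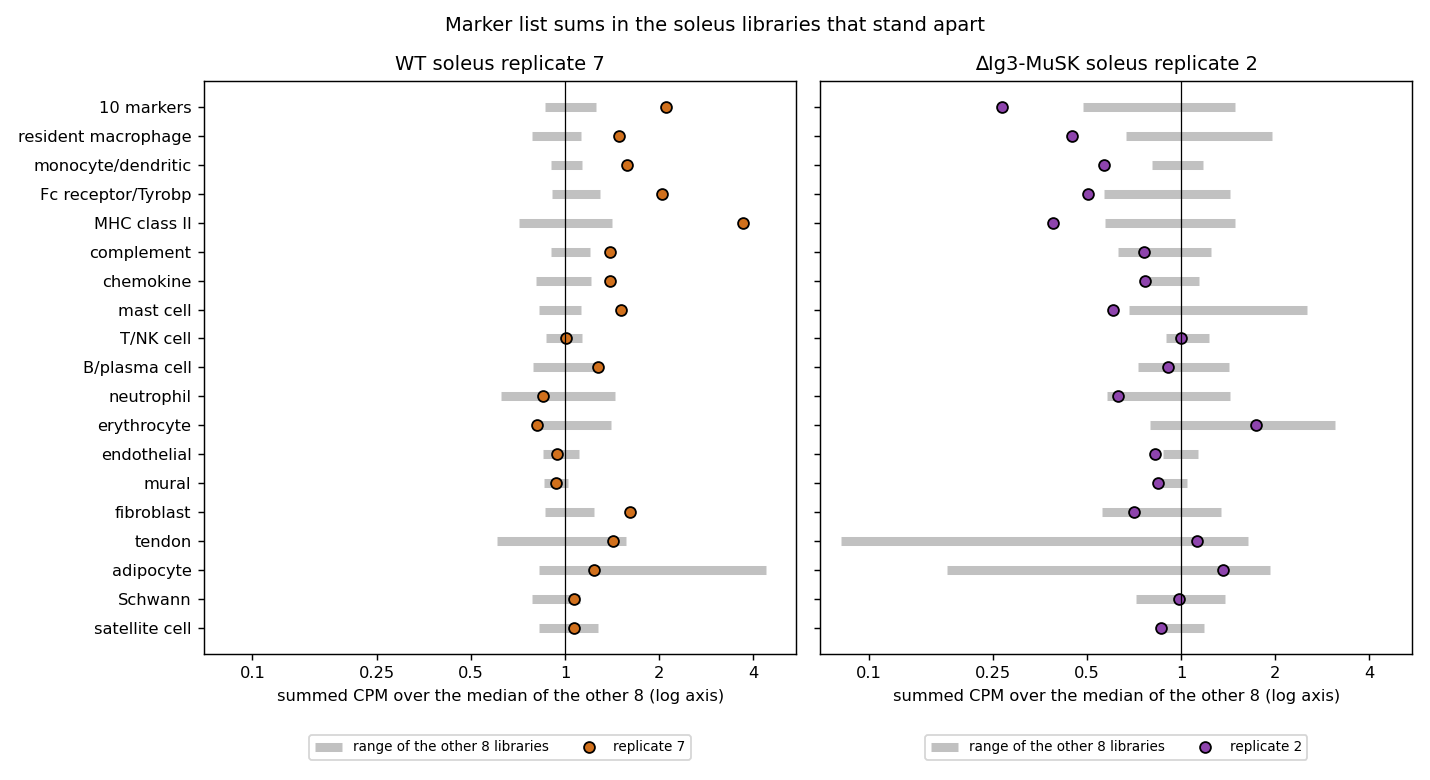
Summed CPM of each marker list in WT soleus replicate 7 and ∆Ig3-MuSK soleus replicate 2, divided by the median of the other 8 libraries of the group (log axis), with the range of those 8 as a grey bar. The macrophage lists and MHC class II lie to the right of the bars in WT replicate 7 (3.71 for MHC class II) and to the left in ∆Ig3-MuSK replicate 2, and T/NK and neutrophil genes lie within them.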

How the data were processed

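The authors deposited raw counts per Ensembl gene, 1 table for each muscle, made from non-stranded libraries of whole muscle trimmed with Trimmomatic, aligned with GSNAP to GRCm38 and counted with HTSeq; their versions, annotation release and counting mode are not given in the sources used here. Groups came from the labels, 9 libraries each. The authors report 1 muscle per animal, yet 16 label numbers occur in both muscles. Whether such a number stands for 1 animal is not known. The main tests treated all libraries as independent, and the label number entered only as a block among the alternatives. The counts were tested with edgeR 4.0.16 (R 4.3.3; TMM factors, filterByExpr with a minimum count of 10, quasi-likelihood F test, Benjamini-Hochberg adjustment over all genes tested), and a gene was called at an adjusted p under 0.05 and at least 1.2-fold. Genotypes were compared within each muscle (18 libraries), and muscles and the interaction in a single fit of 36 libraries. DESeq2 1.42.0 and limma 3.58.1 (voom with quality weights) were alternatives. Correlations used log2 CPM with a prior count of 2 and numpy 2.4.6 and scipy 1.17.1 under python 3.11.15.

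Named genes were the 10 markers, Musk, up to 3 called genes with the smallest adjusted p in each other list, and the 5 genes most like the markers. Cd3e and Ly6g were named after their values were seen. The members and lists were chosen with earlier results of these data known. On simulated counts the tests recovered 99.0% (TA) and 95.0% (soleus) of 200 genes changed by 1 on the log2 scale, and 92.5% for the interaction. False calls were 4.81%, 2.56% and 3.14% of the calls. The genotype estimates of the markers were smaller, from -0.58 to 0.48, and recovery of changes of that size was not simulated. Intervals are at 95%.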

Additional observations from a re-analysis of the deposited data

Results flagged for a closer look

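In 10 of 40 combinations of marker and group, 1 library lay far from the other 8 by Dixon's test at the 0.05 level, where chance flags about 1 in 20. WT soleus replicate 7 accounted for 8 of them, at 7.54 CPM for Ptprc, 7.80 CPM for Cd68, 6.48 CPM for Adgre1, 16.6 CPM for Mrc1, 18.3 CPM for C1qa, 16.05 CPM for C1qb, 31.5 CPM for Csf1r and 81.1 CPM for Lyz2. These flags come from 1 library and from genes that vary together, so they are not separate events. In ∆Ig3-MuSK soleus replicate 6, Cd68 was at 4.38 CPM, where the next library was at 2.62 CPM. In ∆Ig3-MuSK TA replicate 5, Cd163 was at 22.6 CPM, where the next library was at 14.2 CPM.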

How the results depend on the processing

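Members called by genotype and by the interaction were 0 under every alternative run. In WT muscles, 1 member was called, 2 with limma-voom, 0 with the shared label number as a replicate block (Cd68 at 0.55, adjusted p = 0.0603) and 1 to 2 over the fits without 1 library. In ∆Ig3-MuSK muscles, 2 were called, and 1 to 3 over the fits without 1 library. The median r with Csf1r in the soleus was 0.95, and 0.90 without both libraries. Deviations from the group mean were also correlated, over the genes that passed the filter, between libraries of the same number. Across genotypes the median r was -0.0035 in the TA (over 0.1 in 2 of 9 pairs) and 0.0087 in the soleus (3 of 9). Across muscles, 16 pairs of the same label number had r from 0.026 to 0.28 (median 0.091, over 0.1 in 7 of 16). These values do not settle whether a shared number marks the same animal. The replicate block changed no other call.

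Over all genes, the TA genotype comparison called 3 genes with edgeR, 225 with DESeq2, 150 with limma-voom, 7 with upper-quartile factors, 10 with no filter on low counts, 0 with the replicate block 692 in a single fit over 36 libraries and 3 to 9 over the fits without 1 library. The soleus called 185, and 486 with DESeq2, 653 with limma-voom, 347 with the block, 312 in the single fit, 80 without both libraries and from 22 (without WT soleus replicate 5) to 602 (without WT soleus replicate 1) over the fits without 1 library. The interaction called 0, and 797 with DESeq2, 959 with limma-voom, 4 with at least 10 counts in every library, 1 with the shared label number block 9 with it as a random block and 0 in 26 of 36 fits without 1 library, with 1300 without WT TA replicate 9 and 920 without ∆Ig3-MuSK TA replicate 3.

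Signs turned for some estimates, not all of them near 0, and none of these was called. With limma-voom these were Cd68 (0.013), Mrc1 (0.050) and Csf1r (0.032) by genotype in the TA, Cd68 (0.010) in the soleus, Ptprc (-0.032), C1qb (0.073) and C1qc (0.025) between WT muscles, and Lyz2 (-0.081) in the interaction. Without both libraries they were Ptprc (0.0055) and Cd68 (0.25) in the soleus, Ptprc (-0.16), Adgre1 (-0.18) and C1qa (-0.072) between WT muscles, C1qa (0.092), C1qb (0.040) and Csf1r (0.060) between ∆Ig3-MuSK muscles, and Ptprc (0.11), Cd68 (0.38), Adgre1 (0.049), C1qa (0.16), C1qb (0.22) and C1qc (0.14) in the interaction. With replicate blocks they were Cd163 in the soleus (-0.034), Adgre1 between WT muscles (-0.013, random block) and Lyz2 in the interaction (-0.012, and -0.077 with the random block). Adgre1 between WT muscles was at -0.0010 with DESeq2. The cause was not tested.

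Over the fits without 1 library, estimates that spanned 0 ran, by genotype in the TA, for Mrc1 from -0.094 to 0.026 and Csf1r from -0.063 to 0.014. Such estimates ran, by genotype in the soleus, for Cd68 from -0.43 to 0.14 and Cd163 from -0.043 to 0.17. Such estimates ran, between WT muscles, for Ptprc from -0.17 to 0.16, Adgre1 from -0.19 to 0.10, Mrc1 from -0.17 to 0.0095, C1qa from -0.081 to 0.13 and C1qb from -0.19 to 0.052. Such estimates ran, between ∆Ig3-MuSK muscles, for C1qa from -0.14 to 0.091, C1qb from -0.21 to 0.039 and Csf1r from -0.16 to 0.059. Such estimates ran, in the interaction, for Ptprc from -0.31 to 0.029, Cd68 from -0.29 to 0.28, C1qa from -0.19 to 0.052, C1qb from -0.17 to 0.11, C1qc from -0.23 to 0.044 and Lyz2 from -0.058 to 0.31.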
